A study of Mus musculus with 15 samples.

Results

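The genes described here are 40 genes of the oxidant defence that is organised around NRF2, glutathione, thioredoxin and NADPH. They were listed by name and known function, by a rule that uses no measured value, although earlier results of these data were known when the list was drawn up: the transcription factor NRF2 and its inhibitor KEAP1, 2 inducible enzymes, the enzymes that make, use and regenerate glutathione and thioredoxin, the peroxiredoxins, the genes of iron storage and uptake, the enzymes that supply NADPH, 2 regulators of ferroptosis, catalase and superoxide dismutase. All 40 had a row among 56967 gene names in the deposited tables, and 39 passed the filter on low counts, among 19051 genes tested. The member that did not pass was GPX7, a peroxidase of the endoplasmic reticulum, with 2 counts summed over the 3 control libraries and at most 10 in any group.

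Messenger RNA was sequenced in 15 libraries, with 3 libraries in each of 5 groups. The labels name the cells as MDA-MB-468, a human breast cancer line of basal type, and marker genes given below put that identity in doubt. The control group carried a control hairpin (NC). Per the labels, 2 groups carried short hairpin RNAs against SHCBP1 (shSHCBP1_1 and shSHCBP1_2) and 2 carried short hairpin RNAs against TMEM45A (shTMEM45A_1 and shTMEM45A_2), so that every group had a hairpin and no group was untreated. The series is titled as a study of disulfidptosis and prognosis in breast cancer, and nothing in the labels states that the 3 libraries of a group are separate cultures. The p-values below therefore measure how far these libraries spread, and that spread may be only technical.

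NRF2 is a transcription factor that KEAP1 holds at a low level by passing it to a ubiquitin ligase. Oxidants and electrophiles disable KEAP1, and NRF2 then switches on enzymes that make glutathione, reduce thioredoxin, detoxify quinones and electrophiles, store iron and produce NADPH. Glutathione and thioredoxin carry reducing power from NADPH to peroxides and to disulfide bonds of proteins. In disulfidptosis, the form of cell death in the title, disulfides accumulate when a cell that imports much cystine runs short of NADPH, and in ferroptosis, a related form, peroxidised lipids accumulate when glutathione or GPX4 fails.

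Several facts of the whole series bear on the values below. Libraries held 13780294 to 16484000 counts. SHCBP1 itself was not lower in the libraries labelled shSHCBP1: its level was 44.1 ± 2.53 CPM (counts scaled to the TMM-adjusted library size, mean ± SD, n = 3) in NC, 47.1 ± 1.24 in shSHCBP1_1 and 44.3 ± 1.12 in shSHCBP1_2. They are therefore called the libraries labelled shSHCBP1. TMEM45A fell from 26.6 ± 2.09 CPM in NC to 17.8 ± 1.86 and 19.4 ± 0.761 in the shTMEM45A sets, where 38.9% and 39.8% of all genes tested were called lower. NC and the libraries labelled shSHCBP1 stand in one deposited table and the shTMEM45A libraries in another, so the effect of these hairpins and a difference between the tables cannot be told apart. The columns of shTMEM45A_1 were assigned by elimination and their replicate numbers are not known, so its libraries are called columns 1 to 3. The organism is given as mouse in the labels, but the gene symbols in the tables are human. Of 19 markers of breast epithelium, KRT5, KRT6A and KRT16 were at 0 in every library, KRT7, KRT14 and KRT19 stayed under 0.4 CPM, and KRT8 (78.0 to 176 CPM) and KRT18 (43.8 to 163 CPM) were the highest. The summed level of the 19 was 159 to 163 CPM in NC, 171 to 185 in shSHCBP1_1, 174 to 177 in shSHCBP1_2, 320 to 360 in shTMEM45A_1 and 333 to 367 in shTMEM45A_2. KRT8 and KRT18 carried most of that rise, and the other markers were mixed in the shTMEM45A sets. CDH1 fell from a mean of 12.005 CPM in NC to 7.91 and 7.16 and EGFR from 16.3 to 8.25 and 9.08. EPCAM rose from 4.79 to 7.19 and 7.92 and CLDN7 from 2.80 to 4.51 and 4.89. KRT17, SFN and ELF3 rose as well, to means of at most 2.24 CPM. Neurofilament and embryonic kidney line genes (8 listed, CRABP1 at 0 throughout) had a summed level that went the other way, from 544 to 567 CPM in NC to 503 to 525 and 459 to 490 in the sets labelled shSHCBP1 and to 251 to 277 and 227 to 245 in the shTMEM45A sets. NEFL and NEFM carried most of that fall, and not every gene followed. Means of INA were 42.7 CPM in NC, 59.3 and 58.5 in the sets labelled shSHCBP1 and 39.1 and 50.7 in the shTMEM45A sets. LIN28B had 36.5 in NC, 38.8 and 43.9 in the sets labelled shSHCBP1 and 23.4 and 24.2 in the shTMEM45A sets. CDH2 and PAX2 fell in the shTMEM45A sets, from 29.4 and 15.8 in NC to at most 15.9 and 12.7. NEFH had 0.510 in NC and 0.489 to 1.35 in the hairpin sets. With these levels the identity of the line is in doubt, and it was not settled here. The part of these markers in the results on redox genes was not tested. In bulk RNA, fewer cells that express a gene and less of its RNA per cell cannot be told apart.

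In the libraries labelled shSHCBP1, 3 redox genes stood out as higher than NC and most of the changed members were slightly lower. The 3 were NFE2L2, the gene of NRF2 itself, the transferrin receptor TFRC and AIFM2, which encodes the ferroptosis suppressor FSP1. In shSHCBP1_1, 15 of 39 members passed the test (edgeR's quasi-likelihood test, adjusted p under 0.05 over all genes), 3 higher and 12 lower, where 19.9% of all genes tested passed, 9.34% higher and 10.5% lower. In shSHCBP1_2, 20 of 39 passed, 3 higher and 17 lower, where 31.1% of all genes passed, 15.6% higher and 15.4% lower. NFE2L2, TFRC and AIFM2 were the 3 called higher in each set, and since both sets were compared with the same NC libraries the 2 counts are not independent. The median log2 change of the members was -0.12 in shSHCBP1_1 and -0.11 in shSHCBP1_2, beside 0.0095 and 0.0087 over all genes. The share of all genes that passed was larger when genes of low count were left out. With a count minimum of 50 it was 27.6% and 41.2%, where 16 and 21 of 39 members passed.

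The small falls depend on how libraries are scaled, and the 3 rises do not. The main fit scales libraries by TMM, which assumes that most genes are level between libraries. Under scaling by total counts the median of all genes moved to 0.15 and 0.17. The calls of the 39 members became 10 higher and 1 lower in shSHCBP1_1 and 11 higher and 6 lower in shSHCBP1_2. Under that scaling 21.4% and 29.1% of all genes were higher and 3.45% and 6.52% lower. RLE scaling, by the median ratio over genes, gave 3 higher and 19 lower, and 3 higher and 21 lower. With RLE 6.67% and 11.7% of all genes were higher and 16.2% and 22% lower. The members that fell under all 3 scalings were TKT in shSHCBP1_1 and TKT, GSS, PRDX3, PRDX6, MGST3 and SOD1 in shSHCBP1_2. Among all genes, calls toward higher made up 47% and 50.3% of all calls under TMM, 29.1% and 34.6% under RLE and 86.1% and 81.7% under total counts.

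**Figure D1:**
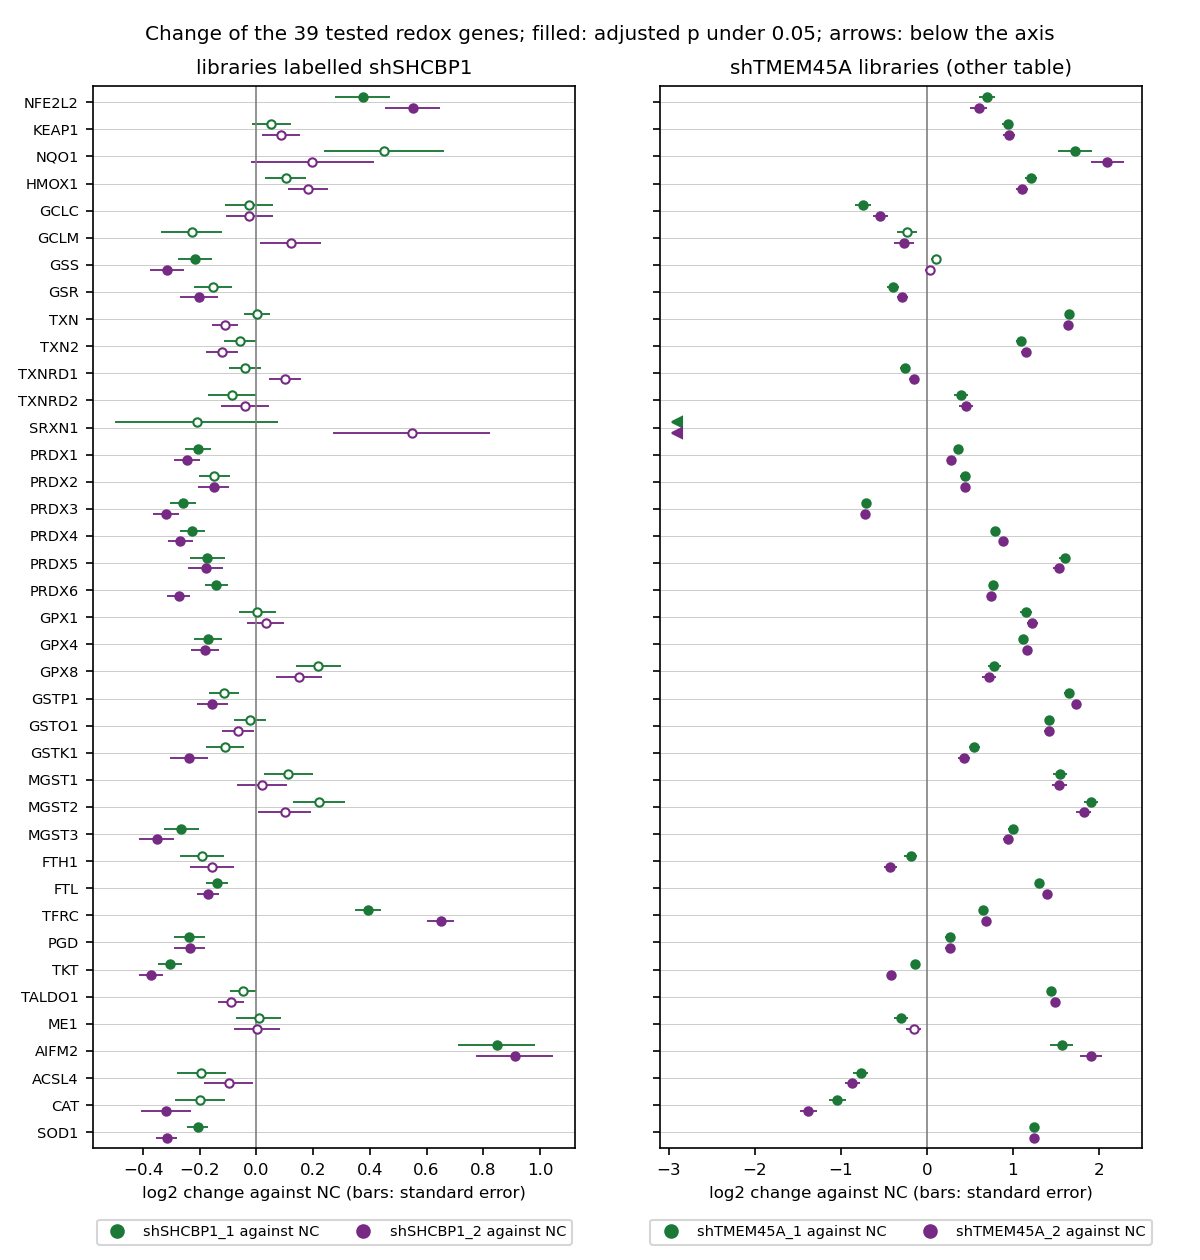
Log2 change against NC (x axis) of each of the 39 tested members (y axis) in the 4 hairpin sets, with standard errors as bars and filled points for an adjusted p under 0.05. In the libraries labelled shSHCBP1 NFE2L2, TFRC and AIFM2 lie to the right of 0, and in the shTMEM45A libraries SRXN1 lies below the drawn range (arrows).

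NFE2L2 was read at 16.4, 17.0 and 14.4 CPM in NC, 19.9, 20.4 and 21.9 CPM in shSHCBP1_1 and 23.9, 22.8 and 23.5 CPM in shSHCBP1_2. Every library of either set was above every NC library. The log2 change (± standard error) was 0.38 ± 0.097 (edgeR quasi-likelihood test, adjusted p = 0.00582) and 0.55 ± 0.097 (adjusted p = 4.91e-05). KEAP1 held nearly level: 49.8 ± 0.944 CPM in NC, 51.6 ± 2.70 CPM and 52.9 ± 2.72 CPM (log2 changes 0.053 ± 0.068 and 0.087 ± 0.068, edgeR adjusted p = 0.65 and 0.359). Neither of the inducible enzymes passed: NQO1, which reduces quinones, had log2 changes of 0.45 ± 0.21 and 0.20 ± 0.22, and HMOX1, which breaks down haem, had 0.10 ± 0.071 and 0.18 ± 0.071. NQO1 was read at 2.85, 3.01 and 4.35 CPM in NC and 5.73, 4.82 and 3.33 CPM in shSHCBP1_1, so that these groups overlapped. Without shSHCBP1_1 replicate 3 its change was 0.64 and passed (edgeR adjusted p = 0.0469), and under total-count scaling NQO1 passed in shSHCBP1_1 and HMOX1 and KEAP1 in both sets, all higher.

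AIFM2 had the largest rise of the members in these libraries. The enzyme it encodes reduces coenzyme Q in membranes, where it traps lipid radicals without glutathione. Its level was 7.01, 6.51 and 5.94 CPM in NC, 10.97, 13.5 and 10.6 CPM in shSHCBP1_1 and 12.9, 12.6 and 11.1 CPM in shSHCBP1_2. The sets did not overlap with NC. The log2 changes were 0.85 ± 0.14 (edgeR adjusted p = 3.24e-05) and 0.91 ± 0.14 (adjusted p = 4.85e-06). ACSL4, which loads polyunsaturated fatty acids into lipids that can be peroxidised, had log2 changes of -0.19 ± 0.086 and -0.098 ± 0.086 and did not pass (edgeR adjusted p = 0.113 and 0.419).

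Among the iron genes, TFRC, the receptor that takes up transferrin-bound iron, rose. It was read at 154, 153 and 147 CPM in NC, 198, 199.9 and 198 CPM in shSHCBP1_1 and 235, 235 and 241 CPM in shSHCBP1_2. The 3 groups formed 3 separate ranges in that order. The log2 changes against NC were 0.39 ± 0.047 (edgeR adjusted p = 3.04e-07) and 0.65 ± 0.047 (adjusted p = 7e-12). Of the ferritin subunits, the light chain FTL was lower by the main fit, at 349 ± 7.17 CPM and 342 ± 2.54 CPM against 385 ± 2.59 CPM, with log2 changes of -0.14 ± 0.039 and -0.17 ± 0.039, which became 0.0037 and -0.0063 under total-count scaling. Without shSHCBP1_1 replicate 2 the call of FTL in that set was lost (edgeR adjusted p = 0.0674). The heavy chain FTH1 did not pass in either set, with log2 changes of -0.19 ± 0.078 and -0.16 ± 0.078.

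The enzymes that supply NADPH were lower or level. TKT, the transketolase of the pentose phosphate pathway, was read at 492, 492 and 511 CPM in NC, 405, 408 and 396 CPM in shSHCBP1_1 and 382, 389 and 384 CPM in shSHCBP1_2, with no overlap. Its log2 changes were -0.31 ± 0.041 (edgeR adjusted p = 2.58e-06) and -0.37 ± 0.041 (adjusted p = 3.6e-08), and it was called lower in each set under each of the 3 scalings. PGD, which makes NADPH from 6-phosphogluconate, had log2 changes of -0.24 ± 0.055 and -0.24 ± 0.055, both called, and -0.094 and -0.071 under total-count scaling, neither called. TALDO1, the transaldolase, and ME1, the cytosolic malic enzyme, did not pass. A list of 16 other tested NADPH and pentose phosphate genes had none higher and 8 lower in shSHCBP1_1 and none higher and 9 lower in shSHCBP1_2, where 9.34% and 15.6% of all genes were higher and 10.5% and 15.4% lower. Under total-count scaling it had none higher, and 4 and 3 lower, where 21.4% and 29.1% of all genes were higher and 3.45% and 6.52% lower. Of these IDH2, the mitochondrial isocitrate dehydrogenase that makes NADPH, chosen for mention after its values were seen, changed by -0.45 ± 0.056 and -0.51 ± 0.056.

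All 6 peroxiredoxins, abundant thiol peroxidases of which most are reduced by thioredoxin, had log2 changes below 0 in both sets. In shSHCBP1_1 5 of the 6 passed and in shSHCBP1_2 all 6, with log2 changes from -0.32 to -0.14. In these sets 10.5% and 15.4% of all genes were lower. Under total-count scaling none passed in shSHCBP1_1, and only PRDX3 and PRDX6 in shSHCBP1_2, where 3.45% and 6.52% of all genes were lower. PRDX3, the mitochondrial form, was read at 271, 260.5 and 253 CPM in NC, 215, 214 and 227 CPM in shSHCBP1_1 and 211, 210.4 and 207 CPM in shSHCBP1_2. It had the largest fall of the 6, -0.26 ± 0.047 (edgeR adjusted p = 0.000158) and -0.32 ± 0.047 (adjusted p = 4.02e-06), and its libraries did not overlap with NC. PRDX3 has 4 near-identical copies in the tables, which took 3.07% of the counts on the gene and its copies in NC, 2.60% in shSHCBP1_1 and 2.32% in shSHCBP1_2. PRDX4, the form of the endoplasmic reticulum, changed by -0.23 ± 0.044 and -0.27 ± 0.044. The calls of PRDX5 and PRDX6 in shSHCBP1_1 and of PRDX2 and PRDX5 in shSHCBP1_2 were lost when 1 library was left out: PRDX5 in shSHCBP1_1 without NC replicate 1 or 3 or any library of the set, PRDX6 without shSHCBP1_1 replicate 2, PRDX2 in shSHCBP1_2 without NC replicate 1 or 3 or any library of the set, and PRDX5 there without NC replicate 1 or 3 or shSHCBP1_2 replicate 2 or 3. No member of the thioredoxin system passed, neither thioredoxin (TXN, log2 changes 0.0022 ± 0.046 and -0.11 ± 0.046), nor its mitochondrial form TXN2, nor the reductases TXNRD1 and TXNRD2, nor SRXN1, the sulfiredoxin that repairs overoxidised peroxiredoxins.

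Among the glutathione members the calls were all toward lower, whereas other genes of glutathione enzymes were called mostly toward higher. In shSHCBP1_1 1 of 4 genes that make or regenerate glutathione passed, 1 of 3 tested peroxidases and 1 of 6 transferases, where 10.5% of all genes were lower. In shSHCBP1_2 they were 2 of 4, 1 of 3 and 3 of 6, where 15.4% of all genes were lower. A list of 22 other tested glutathione genes had 6 higher and 1 lower in shSHCBP1_1 and 9 higher and 3 lower in shSHCBP1_2. Of all genes 9.34% and 15.6% were higher in these sets. Of the 4 genes that make or regenerate glutathione, GSS, the synthetase of the last step, was lower in both sets, at 105, 115 and 112 CPM in shSHCBP1_1 and 100.1, 101 and 109 CPM in shSHCBP1_2 against 129.5, 121 and 136 CPM in NC. Neither set overlapped with NC, and the sets overlapped with each other. The log2 changes were -0.22 ± 0.060 (edgeR adjusted p = 0.00892) and -0.32 ± 0.060 (adjusted p = 0.000135). Without NC replicate 3 or shSHCBP1_1 replicate 1 the call in shSHCBP1_1 was lost (edgeR adjusted p = 0.0830 and 0.0759). GSR, which reduces glutathione disulfide with NADPH, passed only in shSHCBP1_2 (-0.20 ± 0.067), and that call was lost without NC replicate 1 or shSHCBP1_2 replicate 1 or 3. GCLC and GCLM, the catalytic and modifier subunits of the first and rate-limiting step, did not pass in either set. Of 3 tested glutathione peroxidases only GPX4, which reduces lipid hydroperoxides in membranes, passed, with -0.17 ± 0.050 and -0.18 ± 0.050. It did not pass under total-count scaling (-0.027 and -0.015), and the call in shSHCBP1_1 was lost without NC replicate 1 or 3 or shSHCBP1_1 replicate 2. Of 6 glutathione transferases MGST3 was lower in both sets (-0.26 ± 0.062 and -0.35 ± 0.063), and GSTP1 and GSTK1 in shSHCBP1_2 alone (-0.16 ± 0.054 and -0.24 ± 0.067). The difference between the sets did not pass for either of them. The call of GSTP1 was lost without NC replicate 3 or shSHCBP1_2 replicate 2 or 3, and that of GSTK1 without NC replicate 1.

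SOD1, which turns superoxide into hydrogen peroxide, and CAT, which breaks hydrogen peroxide down, were the remaining members. SOD1 was read at 472, 451 and 449.6 CPM in NC, 393, 396 and 400.1 CPM in shSHCBP1_1 and 373, 368 and 361 CPM in shSHCBP1_2. These were again 3 separate ranges, with log2 changes of -0.21 ± 0.037 (edgeR adjusted p = 0.000128) and -0.32 ± 0.037 (adjusted p = 9.24e-08). Under total-count scaling SOD1 changed by -0.064 and -0.15 and passed in shSHCBP1_2 alone. CAT passed only in shSHCBP1_2 (-0.32 ± 0.089, edgeR adjusted p = 0.00624), and not without NC replicate 2 (adjusted p = 0.0813).

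The shTMEM45A libraries differed from NC in nearly every redox gene, as in most genes. In shTMEM45A_1, 37 of 39 members passed, 27 higher and 10 lower, where 74.4% of all genes passed, 35.6% higher and 38.9% lower. In shTMEM45A_2, 37 passed, 27 higher and 10 lower, where 75.9% of all genes passed, 36.1% higher and 39.8% lower. Calls were thus common among all genes in these comparisons. Both sets share the NC libraries here too. Median log2 changes of the members were 0.77 and 0.72, beside -0.035 and -0.044 over all genes. Under total-count scaling the medians of the members were 0.58 and 0.53, beside -0.23 and -0.23 over all genes. Members took 1.01% to 1.05% of all counts in these libraries, and 0.623% to 0.640% in NC and the libraries labelled shSHCBP1.

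**Figure D2:**
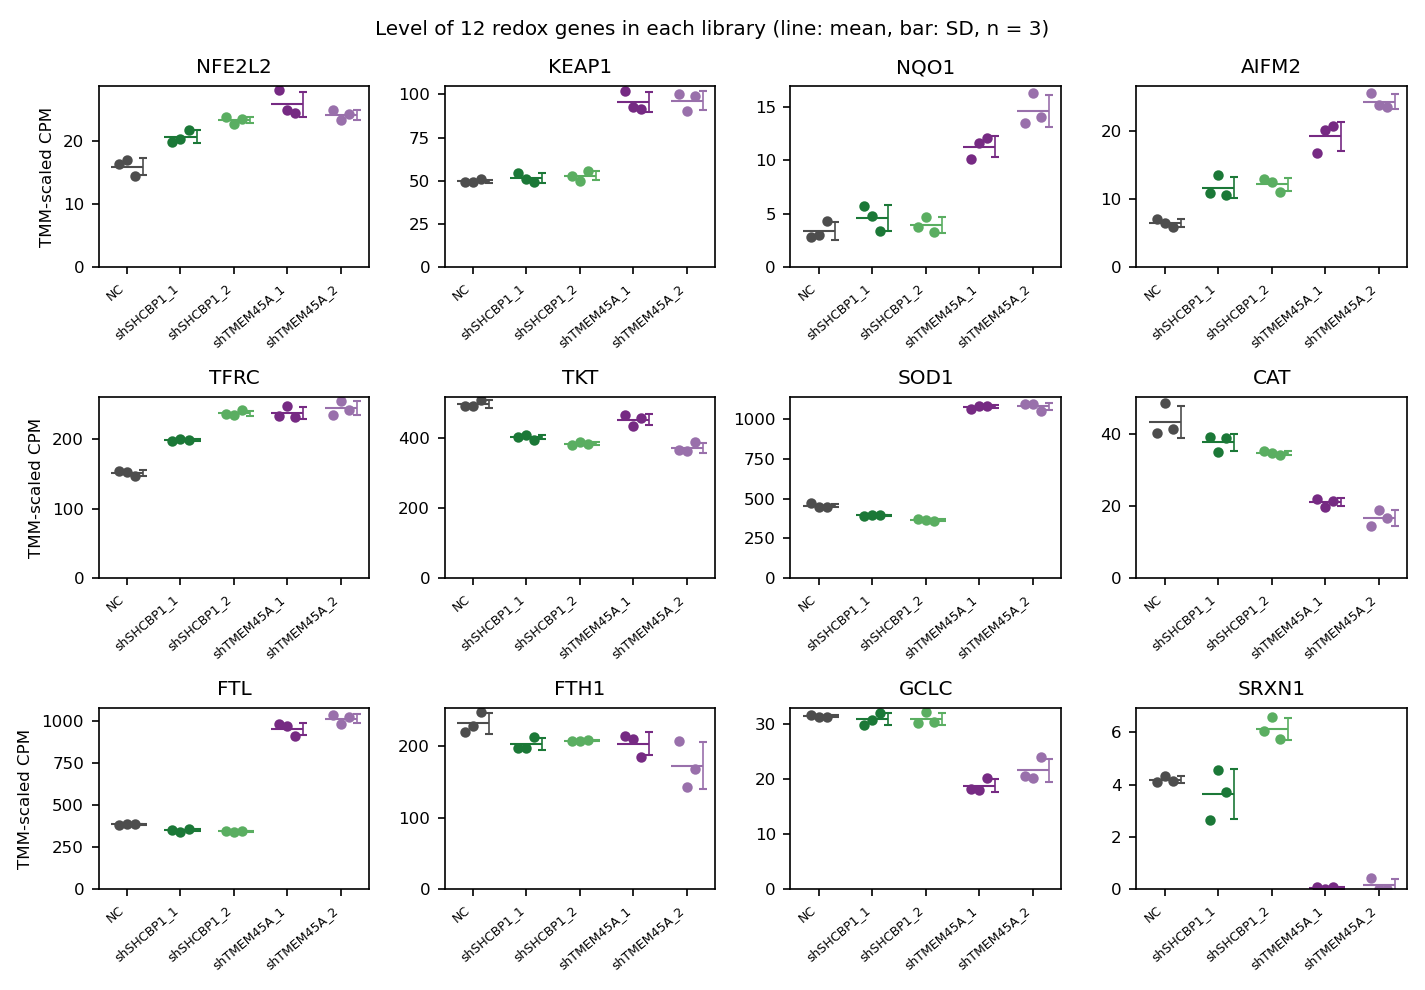
TMM-scaled CPM (y axis, linear, from 0) of 12 members in each of the 15 libraries by group (x axis), with the mean as a line and the SD as a bar. TFRC forms 3 separate ranges in NC and the sets labelled shSHCBP1, FTL and SOD1 are higher and CAT and SRXN1 lower in the shTMEM45A libraries than in NC.

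Transcript length moved with these changes. Lengths were those of the mouse transcripts of the same symbol, available for 37 of the 39 members (TXN and FTL have none), with a median of 1477 nucleotides for the members and 2225 for all 12716 genes with a length. Over 5 equal bins of genes from the shortest to the longest, the median log2 change of the mean of both shTMEM45A sets was 0.54, 0.31, -0.033, -0.26 and -0.60 for all genes. The members in the same bins had medians of 1.12 (17 members), 0.76 (9 members), 0.46 (4 members), -0.28 (6 members) and -0.82 (ACSL4 alone). In the mean of both sets labelled shSHCBP1 the bins of all genes lay between -0.011 and 0.037. A fit with a length offset, chosen after seeing the data, took the trend of counts with length out of each library. It gave 23 members higher and 10 lower of 37 in shTMEM45A_1, with a median of 0.34, where 36.8% of all genes with a length were higher and 37.4% lower. In shTMEM45A_2 it gave 24 higher and 10 lower, with a median of 0.43, where 37.8% were higher and 38.3% lower. The same genes without the offset gave 26 higher and 10 lower (median 0.73), where 38.1% of all were higher and 39.2% lower, and 25 higher and 8 lower (median 0.73), where 38.8% were higher and 40% lower. The value with the offset is given beside the main one below for tested members with a length, apart from SRXN1, which was near 0.

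**Figure D3:**
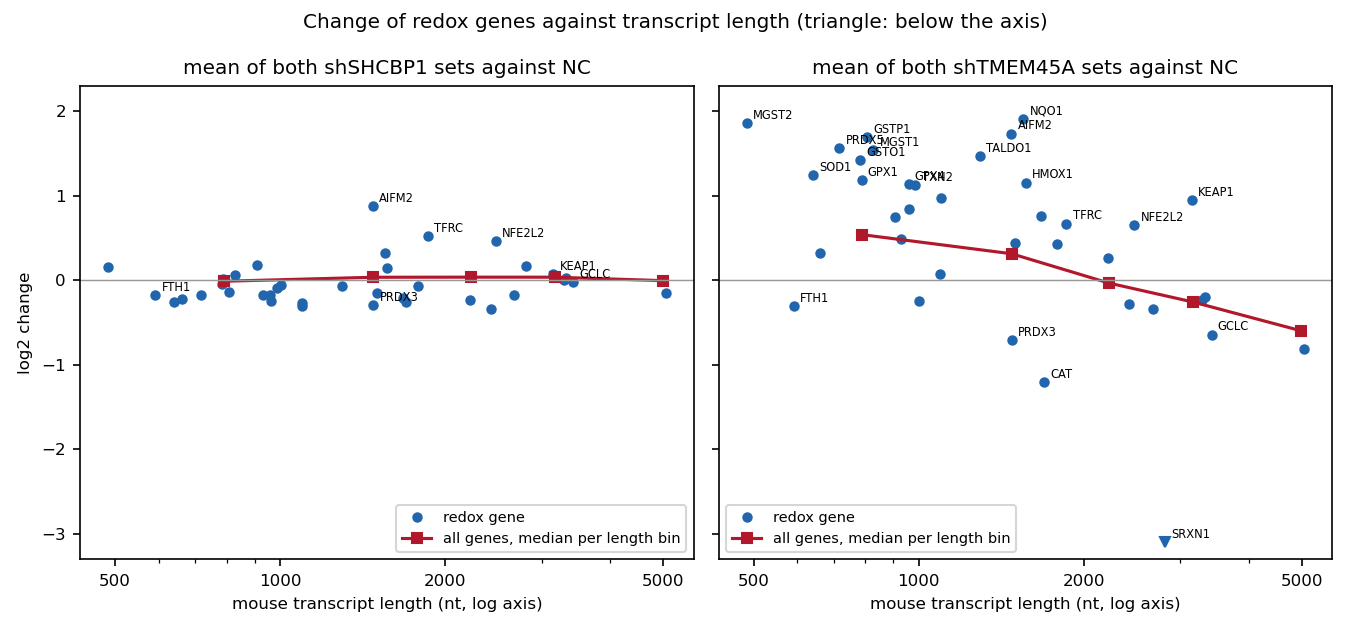
Log2 change of each member (points, y axis) against the length of the mouse transcript of the same symbol (x axis, log scale), for the mean of both sets labelled shSHCBP1 (left) and of both shTMEM45A sets (right), with the median of all genes in each of 5 length bins (squares). In the shTMEM45A panel the squares run from 0.54 to -0.60, and NQO1, AIFM2, TALDO1 and KEAP1 lie above them while CAT, PRDX3 and FTH1 lie below.

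NFE2L2 and KEAP1 were both higher in the shTMEM45A libraries. NFE2L2 was read at 28.1, 25.1 and 24.5 CPM in shTMEM45A_1 and 24.9, 23.4 and 24.4 CPM in shTMEM45A_2, all above the NC range of 14.4 to 17.0 CPM. Its log2 changes were 0.70 ± 0.097 (edgeR adjusted p = 1.73e-07) and 0.60 ± 0.097 (adjusted p = 2.26e-06), and 0.78 and 0.70 with the length offset. KEAP1 was read at 49.1, 49.3 and 50.9 CPM in NC, 102, 92.7 and 91.5 CPM in shTMEM45A_1 and 100.2, 90.1 and 98.9 CPM in shTMEM45A_2. These ranges were far apart, with log2 changes of 0.94 ± 0.066 and 0.95 ± 0.066 (1.17 and 1.20 with the offset).

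NQO1 and HMOX1, the 2 members listed as inducible enzymes, both rose. They are not all the members that NRF2 can switch on. Members that make glutathione, reduce thioredoxin, store iron or supply NADPH are given below and went in both directions. NQO1 was read at 2.85, 3.01 and 4.35 CPM in NC, 10.2, 11.6 and 12.1 CPM in shTMEM45A_1 and 13.5, 16.3 and 14.0 CPM in shTMEM45A_2. The log2 changes were 1.72 ± 0.20 (edgeR adjusted p = 4.54e-09) and 2.10 ± 0.19 (adjusted p = 4.17e-11), and 1.47 and 1.85 with the length offset. HMOX1 rose from 45.6 ± 1.59 CPM in NC to 105 ± 4.37 CPM and 98.3 ± 8.56 CPM, by 1.21 ± 0.069 and 1.11 ± 0.069 on the log2 scale (0.96 and 0.87 with the offset).

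Enzymes that make glutathione did not rise with NQO1 and HMOX1. GCLC was read at 31.7, 31.4 and 31.3 CPM in NC, 18.2, 18.0 and 20.2 CPM in shTMEM45A_1 and 20.6, 20.1 and 24.0 CPM in shTMEM45A_2, all below NC. It fell by 0.74 ± 0.089 (edgeR adjusted p = 1.13e-08) and 0.54 ± 0.088 (adjusted p = 2.15e-06) on the log2 scale, and with the offset its changes were -0.46 and -0.24. GCLM had changes of -0.23 ± 0.11 and -0.27 ± 0.11 and passed in shTMEM45A_2 alone, where the call was lost without NC replicate 2 or shTMEM45A_2 replicate 2 or 3. With the offset its changes were -0.67 and -0.72, both called. GSS did not pass in the main fit (0.11 ± 0.059 and 0.038 ± 0.060), and was lower with the offset (-0.31 and -0.39). GSR fell, with changes of -0.39 ± 0.068 and -0.28 ± 0.067, and -0.26 and -0.14 with the offset, of which only the first passed.

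Members of the glutathione peroxidase and transferase families rose without exception in the main fit, 3 of 3 tested peroxidases and 6 of 6 transferases in both sets. In that fit 35.6% and 36.1% of all genes were higher in shTMEM45A_1 and shTMEM45A_2. GPX4 was read at 504, 470.2 and 490.5 CPM in NC, 1086, 1108 and 987 CPM in shTMEM45A_1 and 1172, 992 and 1113 CPM in shTMEM45A_2. Its log2 changes were 1.12 ± 0.050 and 1.16 ± 0.050 (0.67 and 0.70 with the offset). GPX1, the cytosolic peroxidase, changed by 1.15 ± 0.064 and 1.22 ± 0.064 (0.65 and 0.70 with the offset). GPX8, of the endoplasmic reticulum, changed by 0.79 ± 0.079 and 0.72 ± 0.079 (0.32 and 0.24 with the offset). Among the transferases, which join glutathione to electrophiles, the changes ran from 0.55 ± 0.066 and 0.43 ± 0.066 for GSTK1 of mitochondria and peroxisomes to 1.91 ± 0.084 and 1.82 ± 0.084 for the microsomal MGST2 (1.29 and 1.16 with the offset). GSTP1, the cytosolic pi-class enzyme, was read at 427, 417 and 456 CPM in NC, 1382, 1433 and 1264 CPM in shTMEM45A_1 and 1512, 1291 and 1533 CPM in shTMEM45A_2, which is a 3.14-fold and 3.34-fold rise, and with the offset its log2 changes were 1.15 and 1.22. MGST1, MGST3 and GSTO1 changed by 1.06, 0.58 and 0.92 in shTMEM45A_1 and by 1.03, 0.52 and 0.89 in shTMEM45A_2 with the offset. With the offset 5 of the 6 transferases stayed higher in both sets and GSTK1 did not pass (0.090 and -0.041). Of all genes with a length, 36.8% and 37.8% were higher with the offset.

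The thioredoxin system was split. TXN was read at 369, 369 and 329 CPM in NC, 1089, 1112 and 1158 CPM in shTMEM45A_1 and 1079.9, 1127 and 1119 CPM in shTMEM45A_2. Its log2 changes were 1.65 ± 0.046 and 1.64 ± 0.046 (edgeR adjusted p = 1.24e-23 and 1.21e-23), and no value with the offset can be given because TXN has no length. TXN2 rose by 1.10 ± 0.055 and 1.15 ± 0.055 (0.65 and 0.70 with the offset), and the mitochondrial reductase TXNRD2 by 0.40 ± 0.083 and 0.46 ± 0.083 (0.25 and 0.31 with the offset). The cytosolic reductase TXNRD1 had changes of -0.25 ± 0.057 and -0.15 ± 0.057, both called, and 0.012 and 0.13 with the offset, so that its direction turned. In shTMEM45A_2 its call was also lost without NC replicate 2 or shTMEM45A_2 replicate 3.

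SRXN1 was near 0 in the shTMEM45A libraries. It had 59, 62 and 60 counts in the NC libraries, 1, 0 and 1 in shTMEM45A_1 and 6, 0 and 0 in shTMEM45A_2. All 6 counts of shTMEM45A_2 came from replicate 1. The summed share of counts was 86.6-fold lower in shTMEM45A_1 (95% exact interval 23.6 to 721) and 29.2-fold lower in shTMEM45A_2 (13.1 to 80.5), where the intervals cover counting error only. In the libraries labelled shSHCBP1 SRXN1 was at 3.64 ± 0.962 CPM and 6.13 ± 0.431 CPM, beside 4.19 ± 0.129 CPM in NC, and did not pass (log2 changes -0.21 ± 0.29 and 0.55 ± 0.28).

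Of the peroxiredoxins, 5 were higher and PRDX3 was lower in both shTMEM45A sets. Among all genes 35.6% and 36.1% were higher and 38.9% and 39.8% lower. PRDX5, found in several compartments, had the largest rise, from 207, 190.0 and 201 CPM in NC to 589.7, 634 and 591 CPM in shTMEM45A_1 and 578, 506 and 644 CPM in shTMEM45A_2. Its log2 changes were 1.60 ± 0.061 and 1.53 ± 0.061 (1.07 and 0.97 with the offset). PRDX3 was read at 160.4, 161 and 159.9 CPM and 158, 168 and 152 CPM, below all NC libraries, with log2 changes of -0.70 ± 0.048 and -0.71 ± 0.048 (-0.99 and -1.00 with the offset). The genes taken as copies of PRDX3 held 3.07% of the joint counts in NC and 0.331% and 0.150% in the shTMEM45A sets. PRDX4 rose by 0.79 ± 0.043 and 0.89 ± 0.043 (0.34 and 0.43 with the offset), and PRDX6 by 0.77 ± 0.040 and 0.74 ± 0.040 (0.57 and 0.55 with the offset). The cytosolic PRDX1 and PRDX2 rose least, by 0.36 ± 0.046 and 0.28 ± 0.046, and by 0.44 ± 0.054 and 0.45 ± 0.054, and with the offset PRDX1 was lower (-0.19 and -0.30) and PRDX2 was at 0.16 and 0.18.

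The ferritin subunits went in opposite directions. FTL was read at 382, 385 and 388 CPM in NC, 978, 965 and 909 CPM in shTMEM45A_1 and 1034, 979 and 1019.9 CPM in shTMEM45A_2, with log2 changes of 1.30 ± 0.039 and 1.39 ± 0.039. FTH1 was read at 220.1, 228 and 248 CPM in NC, 215, 210.3 and 185 CPM in shTMEM45A_1 and 208, 144 and 168 CPM in shTMEM45A_2, with log2 changes of -0.19 ± 0.078 (edgeR adjusted p = 0.0304) and -0.42 ± 0.078 (adjusted p = 1.72e-05). With the offset FTH1 changed by -0.76 and -1.03, and FTL has no length. The ranges of FTL were far above NC, and those of FTH1 lay below NC without overlap. The call of FTH1 in shTMEM45A_1 was lost without NC replicate 3 or shTMEM45A_1 column 3. For FTH1, 25 further genes in the tables were taken as copies, again without a comparison of sequences. These held 3.43% of the joint counts in NC and 7.97% and 7.70% in the shTMEM45A sets, so the values of FTH1 are uncertain. TFRC rose by 0.65 ± 0.047 and 0.69 ± 0.047 (0.53 and 0.58 with the offset).

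The NADPH members were divided as well. TALDO1 rose from 155 ± 1.56 CPM in NC to 420.2 ± 15.5 CPM and 437 ± 14.9 CPM, by 1.44 ± 0.045 and 1.49 ± 0.045 (1.08 and 1.13 with the offset). PGD rose by 0.27 ± 0.055 and 0.27 ± 0.055, which did not pass under total-count scaling (0.078 and 0.077), and by 0.28 and 0.29 with the offset. TKT fell, to 453 ± 15.3 CPM in shTMEM45A_1 and 373 ± 14.3 CPM in shTMEM45A_2, with changes of -0.14 ± 0.041 and -0.42 ± 0.041 (-0.069, not called, and -0.34 with the offset). ME1 had changes of -0.30 ± 0.083 and -0.16 ± 0.082, called in shTMEM45A_1 alone, and -0.047 and 0.12 with the offset, neither called. In the main fit the 16 other NADPH and pentose phosphate genes had 4 higher and 10 lower in shTMEM45A_1. They had 5 higher and 10 lower in shTMEM45A_2. Of all genes 35.6% and 36.1% were higher and 38.9% and 39.8% lower.

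AIFM2 and ACSL4 went apart. AIFM2 was read at 16.8, 20.2 and 20.7 CPM in shTMEM45A_1 and 25.6, 23.9 and 23.5 CPM in shTMEM45A_2, a 2.96-fold and 3.75-fold rise over NC (log2 1.57 ± 0.13 and 1.91 ± 0.13, and 1.28 and 1.62 with the offset). ACSL4 fell from 63.6 ± 5.46 CPM to 37.3 ± 1.65 CPM and 34.9 ± 6.25 CPM, with log2 changes of -0.77 ± 0.090 and -0.87 ± 0.090, and -0.24 and -0.31 with the offset. It has the longest mouse transcript of the members with a length.

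CAT fell and SOD1 rose. CAT was read at 40.2, 48.6 and 41.3 CPM in NC, 22.1, 19.8 and 21.4 CPM in shTMEM45A_1 and 14.4, 19.0 and 16.6 CPM in shTMEM45A_2, with log2 changes of -1.04 ± 0.094 (edgeR adjusted p = 3.13e-11) and -1.38 ± 0.097 (adjusted p = 7.89e-14), and -1.23 and -1.56 with the offset. SOD1 was read at 1068, 1085 and 1087 CPM in shTMEM45A_1 and 1095, 1095 and 1056 CPM in shTMEM45A_2. Its log2 changes were 1.24 ± 0.037 and 1.24 ± 0.037, and 0.69 and 0.66 with the offset.

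**Figure D4:**
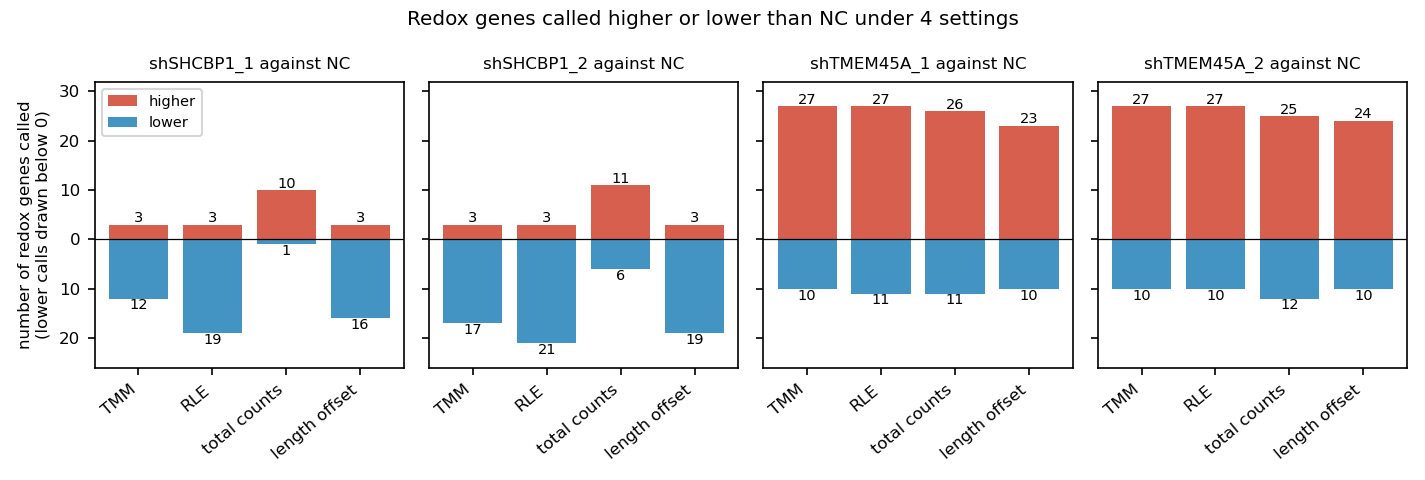
Number of redox genes called higher (above 0) or lower (below 0) than NC (y axis) in each hairpin set under TMM, RLE and total-count scaling, each of 39 members, and with a length offset, of 37 (x axis). In the libraries labelled shSHCBP1 the split turns from 3 higher and 12 lower to 10 higher and 1 lower under total counts in shSHCBP1_1, and in the shTMEM45A libraries 23 to 27 members are higher under every setting drawn.

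When the 2 sets of each target were averaged and set against NC, 22 of 39 members passed for the libraries labelled shSHCBP1, 4 higher and 18 lower, where 31.1% of all genes passed, 15.2% higher and 15.9% lower. For the shTMEM45A libraries 38 passed, 27 higher and 11 lower, where 78.6% of all genes passed, 37.3% higher and 41.3% lower. Both means are taken against the same 3 NC libraries, so the values of a member are set side by side here and not tested against each other. AIFM2 had 0.88 ± 0.12 for the libraries labelled shSHCBP1 and 1.74 ± 0.12 for the shTMEM45A libraries. NFE2L2 had 0.46 ± 0.085 and 0.65 ± 0.086, and TFRC had 0.52 ± 0.041 and 0.67 ± 0.041. These are the members whose rise in the libraries labelled shSHCBP1 held under each scaling. GPX8, the fourth called higher there, had 0.18 ± 0.070 and 0.75 ± 0.070, and it did not pass in either set labelled shSHCBP1 by itself. SOD1 had -0.26 ± 0.032 and 1.24 ± 0.033. PRDX3 had -0.29 ± 0.040 and -0.71 ± 0.040, and TKT had -0.34 ± 0.035 and -0.28 ± 0.035. GSS, which makes glutathione, was the member called for the libraries labelled shSHCBP1 (-0.27 ± 0.051) but not for the shTMEM45A libraries (0.074 ± 0.052).

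A hairpin set differed from the other set of the same target in 1 member each. TFRC was higher in shSHCBP1_2 than in shSHCBP1_1 by 0.26 ± 0.046 (edgeR adjusted p = 0.00386), where 0.835% of all genes passed, 0.499% higher and 0.336% lower. It passed without any single library of the 2 sets. TKT was lower in shTMEM45A_2 than in shTMEM45A_1 by 0.28 ± 0.041 (edgeR adjusted p = 6.11e-05), where 5.27% of all genes passed, 1.95% higher and 3.32% lower. Its libraries were read at 465, 436 and 458 CPM in shTMEM45A_1 and 368, 363 and 389.8 CPM in shTMEM45A_2, with no overlap. With the libraries of the NC table alone, 5 members passed between the sets labelled shSHCBP1, where 6.74% of all genes passed: GCLM, SRXN1 and TFRC were higher and PRDX6 and SOD1 lower in shSHCBP1_2. Without shTMEM45A_2 replicate 2, which differed most from the other 2 libraries of its set, 4 members passed between the shTMEM45A sets, where 6.66% of all genes passed, with GPX1 and GSTP1 higher and CAT lower in shTMEM45A_2 beside TKT.

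Of 104 other genes of the same pathways, 96 were tested. In the libraries labelled shSHCBP1, 16 were higher and 15 lower in shSHCBP1_1 and 24 higher and 25 lower in shSHCBP1_2, where 9.34% and 15.6% of all genes were higher and 10.5% and 15.4% lower. In the shTMEM45A libraries 53 were higher and 30 lower in shTMEM45A_1 and 51 higher and 32 lower in shTMEM45A_2, where 35.6% and 36.1% of all genes were higher and 38.9% and 39.8% lower. Median log2 changes of the list were -0.029, 0.012, 0.31 and 0.27 in the 4 sets in that order, beside 0.0095, 0.0087, -0.035 and -0.044 over all genes.

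Among called genes of this list with a mean log2 CPM of at least 2, the largest changes on the mean of both sets labelled shSHCBP1 were those of CHAC1, OSGIN1 and CHAC2 among those higher and MTHFD2, TXNIP and PSTK among those lower. CHAC1 degrades glutathione in the cytosol, and its log2 change was 2.73 ± 0.18 (edgeR adjusted p = 1.36e-12), from 1.34 ± 0.246 CPM in NC to 7.11 ± 0.204 CPM and 11.3 ± 0.755 CPM. CHAC2, of the same family, rose by 1.20 ± 0.15, and OSGIN1, an oxidative stress gene that NRF2 can induce, by 1.23 ± 0.24. MTHFD2, the mitochondrial folate dehydrogenase, fell by 0.63 ± 0.045, TXNIP, which binds and inhibits thioredoxin, by 0.62 ± 0.037, and PSTK, a kinase of selenocysteine synthesis, by 0.48 ± 0.13. On the mean of both shTMEM45A sets, at the same minimum level, the largest were OSGIN1 (2.76 ± 0.22), CHAC1 (2.68 ± 0.19) and CBR3, a carbonyl reductase (2.44 ± 0.19), among those higher. Below that level AKR1C3 (3.82 ± 0.73) and AKR1C2 (3.65 ± 0.75), aldo-keto reductases named after their values were seen, were also called higher, from means of 0.0923 and 0.0922 CPM in NC to at most 1.53 and 1.29 in a shTMEM45A set. Among those lower they were TXNIP (-3.33 ± 0.039), LPCAT3, which puts polyunsaturated fatty acids into phospholipids (-2.92 ± 0.15), and MAFK, a small MAF partner of NRF2 on DNA (-2.67 ± 0.084). TXNIP was read at 634, 639 and 616 CPM in NC, 59.3, 59.9 and 62.8 CPM in shTMEM45A_1 and 67.1, 61.8 and 65.0 CPM in shTMEM45A_2.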

How the data were processed

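Messenger RNA of 15 libraries was counted per gene. The authors deposited 2 tables that hold raw, unnormalized counts for each gene symbol. Which aligner and counter they used is not given in the sources used here. A build, mm10, is named in the submitters' processing notes, whereas the symbols are human, so no coordinates were used and levels are not compared between genes. Per the labels' protocols, the kit was NEBNext Ultra, which does not mark strand, so that overlapping antisense genes cannot be told apart. Duplicated and date-like names (200 names on 1768 rows) were left out. Genes that passed filterByExpr (minimum count 10, minimum total 15) were scaled by TMM. They were tested in 1 fit of all 15 libraries with edgeR 4.0.16 in R 4.3.3 (quasi-likelihood test, Benjamini-Hochberg adjustment over 19051 genes, threshold 0.05). The fit was tried on simulated data in which few genes changed, in shSHCBP1_1 against NC alone. That simulation does not cover changes as widespread as those in the shTMEM45A libraries. The standard error of a log2 change is its size over the square root of the F statistic. Alternatives were RLE and total-count scaling, no filter or a count minimum of 50, DESeq2 1.42.0, the libraries of 1 table, a replicate block and leaving out each library; a length offset (loess span 0.5) was chosen after seeing the data. From the pathway list, the 3 largest called changes in each direction on the mean of both sets are named, among genes with a mean log2 CPM of at least 2. Members and lists were chosen with earlier results of these data known. Genes with a like pattern are not named, because libraries fall into 2 clusters by table.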

Additional observations from a re-analysis of the deposited data

Results flagged for a closer look

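TFRC differed between the sets labelled shSHCBP1: its log2 change in shSHCBP1_2 against shSHCBP1_1 was 0.26 (edgeR adjusted p = 0.00386), and every library of shSHCBP1_2 was above every library of shSHCBP1_1. TKT differed between the shTMEM45A sets: its log2 change in shTMEM45A_2 against shTMEM45A_1 was -0.28 (edgeR adjusted p = 6.11e-05), and every library of shTMEM45A_2 was below every library of shTMEM45A_1. Both were picked out because the test of the difference between 2 hairpin sets of the same target passed. Groups of 3 libraries are too small for a search for single outlying libraries.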

How the results depend on the processing

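The number of members called stayed within 1.5 times that of the main fit in all 4 comparisons with NC under RLE and total-count scaling, no filter on low counts, a count minimum of 50, the libraries of 1 table (or only the groups compared), the replicate block and the length offset, and under DESeq2 apart from shSHCBP1_1, where DESeq2 called 23 against 15. Between the sets labelled shSHCBP1 the count of 1 became 3 with DESeq2 and 5 with the libraries of 1 table alone. Between the shTMEM45A sets the count of 1 became 3 without a filter on low counts, 2 with DESeq2 and 2 with the length offset. The cause was not tested, except that the fit of 1 table used fewer libraries. With 1 library left out, calls numbered 11 to 16 for shSHCBP1_1, 16 to 19 for shSHCBP1_2, 36 to 38 for shTMEM45A_1, 35 to 37 for shTMEM45A_2, 1 to 1 between the sets labelled shSHCBP1 and 1 to 4 between the shTMEM45A sets. Over 1404 values of single members with 1 library left out, 36 lost their call, 12 gained one, and no call changed direction.

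Directions turned under 2 alternatives. Under total-count scaling, values that were called in the main fit or under the alternative became 0.0021 for PRDX6 and 0.0037 for FTL in shSHCBP1_1, 0.014 for PRDX2 and 0.0096 for GSTP1 in shSHCBP1_2 and -0.15 for GSS in shTMEM45A_2. With the length offset, GSS became -0.31 and -0.39, TXNRD1 0.012 and 0.13, and PRDX1 -0.19 and -0.30 in shTMEM45A_1 and shTMEM45A_2, and GSTK1 became -0.041 in shTMEM45A_2. The cause was not tested. Lengths come from mouse transcripts and may differ from the human ones.

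Replicate numbers did not pair the libraries: the 18 correlations between same-numbered libraries of different groups, taken on deviations from the group means, ran from -0.035 to 0.038, none above 0.1. A fit with the replicate number as a block called 16 members for shSHCBP1_1, 20 for shSHCBP1_2, 36 for shTMEM45A_2 and 1 between the sets labelled shSHCBP1. No paired analysis was possible for shTMEM45A_1 because its columns carry no replicate numbers that tie to the labels. Depth limited GPX7, with 2 counts, and NQO1 and SRXN1, with 147 and 181 counts in the 3 NC libraries together.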
